A study of Mus musculus with 4 samples.

Results

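The genes described here are 10 members of the histone deacetylase and acetyltransferase families, other than Hdac3 itself: the deacetylase genes Hdac1, Hdac2, Hdac8, Hdac6, Hdac10 and Hdac11 and the acetyltransferase genes Ep300, Crebbp, Kat2a and Kat2b. They were taken by symbol from the deposited table, which has 28611 rows, and each of the 10 symbols had a row. The question was whether any of them changed in level when Hdac3 was lost from granulosa cells (GCs) of the mouse ovary. Both genotypes were C57BL/6 females with floxed Hdac3 alleles that received 1 intraperitoneal injection of tamoxifen at 20 mg/kg on day 18 and were taken at postnatal day 24, 6 days later. The Hdac3flox/flox mice carried no Cre, while the Hdac3cKO mice (Hdac3flox/flox; Foxl2-CreERT2) also carried a tamoxifen-inducible Cre under Foxl2, which acts in GCs, so the Cre and the deletion cannot be told apart. There were 2 libraries for each genotype, and the design text gives 2 mice per group. The labels name GCs, but the extraction protocol starts from ovaries. Markers of other ovarian cells were present in Hdac3flox/flox, summed to 177.7 to 180.9 RPKM for oocytes, 1025 to 1119 for theca and 98.4 to 99.8 for endothelium. The levels given here are therefore not those of GCs alone. According to the study, the loss of Hdac3 in this model was incomplete.

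Histone acetyltransferases place acetyl groups on lysines of histone tails, a mark of active promoters and enhancers, and histone deacetylases take them off. Class I deacetylases (HDAC1, HDAC2, HDAC3 and HDAC8) are mostly nuclear: HDAC1 and HDAC2 are close paralogues that work together in the Sin3, NuRD, CoREST and MiDAC complexes, while HDAC3 works in the NCoR and SMRT complexes. In GCs, gonadotropins switch large sets of genes on and off around ovulation, and the balance of acetylation at their promoters is part of that switch.

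The library totals implied by the RPKM values were 17621129 to 18452073 reads, nearly all of them in genes. Replicates correlated at 0.975 (Hdac3flox/flox) and 0.975 (Hdac3cKO) across 15528 tested genes. Levels are given as RPKM, reads divided by exon length in kilobases and by library size, and differences as log2 fold changes of RPKM + 0.1 with limma, adjusted by Benjamini-Hochberg over all 15528 genes and called at an adjusted p under 0.05. Hdac3, the targeted gene, gave 24.4 RPKM in each Hdac3flox/flox library, while Hdac3cKO gave 19.4 and 19.2 RPKM. The difference was −21.03% (log2 fold change −0.34, SE 0.032, limma adjusted p = 0.00935), although its row sums the whole gene, undeleted exons included. Each library left out in turn gave a limma adjusted p of 0.0724 to 0.0894 for Hdac3.

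None of the 10 genes was called higher in Hdac3cKO, and 1 of them, Hdac11, was called lower. Across all tested genes 7.68% were called higher and 11.0% lower, 18.7% in either direction, so in this fit the share called among the 10 was no larger than among genes in general. The comparison changed with the processing. With the libraries scaled by median of ratios or TMM, 3 of the 10 were called, against 18.7% and 18.8% of all genes. Without a filter on low values 0 were called, against 3.33%. The RPKM ranges of the genotypes did not overlap for 7 of the 10 genes, which were Hdac1, Hdac2 and Hdac6 on the higher side and Hdac8, Hdac10, Hdac11 and Kat2b on the lower side. That happened for 64.5% of all tested genes, 26.7% higher and 37.8% lower. Of the 10 genes, 5 had an unadjusted limma p under 0.05 (Hdac1, Hdac2, Hdac10, Hdac11 and Kat2b), against 36.2% of all genes. limma voom on the recovered reads called 4 of the 10, Hdac1 and Hdac2 higher and Hdac11 and Kat2b lower, and that fit called 30.0% of all genes. The median log2 fold change was −0.022 over the 10 genes and −0.036 over all genes tested. A p that misses the threshold does not show that the levels were equal, so each gene is given with its interval.

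**Figure D1:**
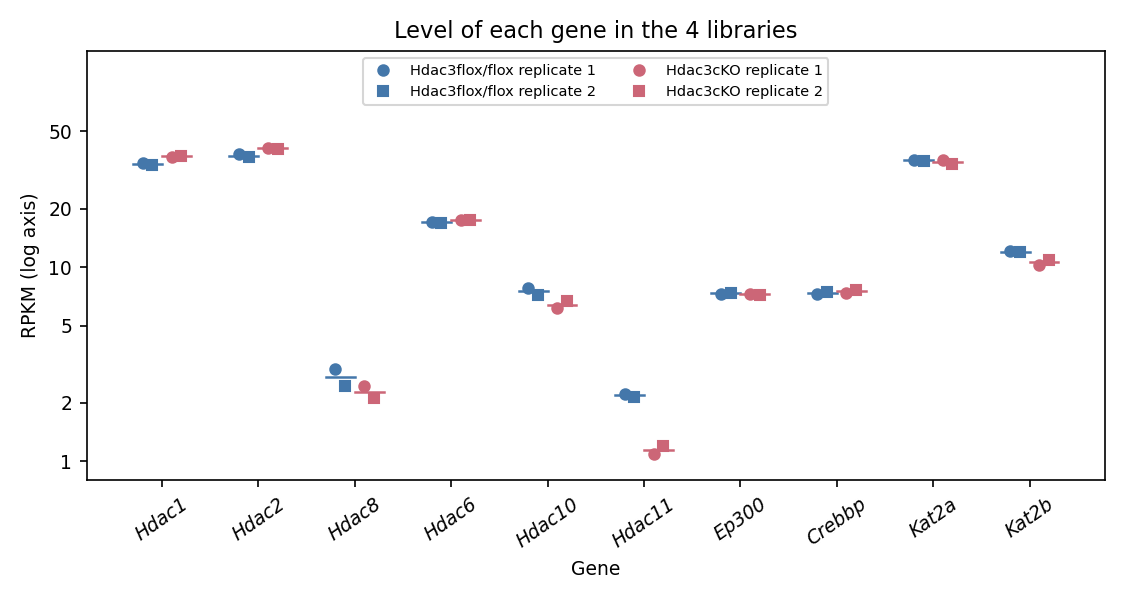
RPKM (log axis) of the 10 genes in each of the 4 libraries, with circles and squares for replicates 1 and 2, blue for Hdac3flox/flox, red for Hdac3cKO and a short line at each mean. Hdac11 shows the widest separation, from 2.15 and 2.23 RPKM down to 1.10 and 1.19 RPKM, while the points of Ep300, Crebbp and Kat2a lie among each other.

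The 10 genes covered a wide span of levels. In Hdac3flox/flox the order of mean RPKM was Hdac2 (37.4), Kat2a (35.5), Hdac1 (34.0), Hdac6 (17.0), Kat2b (12.03), Hdac10 (7.52), Crebbp (7.39), Ep300 (7.34), Hdac8 (2.72) and Hdac11 (2.19). Hdac10, Crebbp and Ep300 could not be ordered, since the ranges of these neighbours overlapped, and every other neighbouring pair was separate in both libraries. In Hdac3cKO every neighbouring pair was separate. Hdac1 then stood above Kat2a, and Hdac10 stood below Ep300. By mean RPKM over the 4 libraries Hdac2 ranked 1320 and Hdac1 1484 among all tested genes, while Hdac8 ranked 10893 and Hdac11 12017.

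Among the class I genes, Hdac1 and Hdac2 were slightly higher in Hdac3cKO and both fell short of the threshold. Hdac1 (chromosome 4, 129516104 to 129542713, minus strand, GRCm38) was at 34.3 and 33.7 RPKM in Hdac3flox/flox and at 37.1 and 37.2 RPKM in Hdac3cKO, or 2165 and 2132 reads against 2358 and 2257. Both Hdac3cKO libraries lay above both Hdac3flox/flox libraries. The means were 34.0 ± 0.418 and 37.1 ± 0.060 RPKM (SD, n = 2 each), 9.14% higher, with a log2 fold change of 0.13 (SE 0.030, 95% interval 0.047 to 0.20, limma adjusted p = 0.0525). Hdac2 (chromosome 10, 36974544 to 37001889, plus strand) was at 38.1 and 36.8 RPKM in Hdac3flox/flox and at 41.1 and 40.8 RPKM in Hdac3cKO. Its groups did not overlap either. It was 9.37% higher, with a log2 fold change of 0.13 (SE 0.033, 95% interval 0.042 to 0.22, limma adjusted p = 0.0620). Hdac1 and Hdac2 each passed the threshold under 6 of 10 other ways of processing the table, with adjusted p of 0.0177 to 0.0852 for Hdac1 and 0.0176 to 0.113 for Hdac2 and a log2 fold change of up to 0.20 for Hdac1, and under none that left out a library.

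The reads themselves gave a ratio of Hdac3cKO to Hdac3flox/flox of 1.09 for Hdac1 (exact 95% interval 1.05 to 1.14) and 1.09 for Hdac2 (1.06 to 1.13), where the intervals cover counting error only. Over all genes the replicates differed by more than counting error, with a chi-square per degree of freedom of 1.973 for Hdac3flox/flox and 2.075 for Hdac3cKO. The intervals are therefore too narrow for the spread between libraries. The paralogues moved by similar amounts. The ratio of Hdac1 to Hdac2 was 0.901 and 0.918 in Hdac3flox/flox and 0.903 and 0.911 in Hdac3cKO, and the genotypes overlapped. The value of Hdac1 is less certain than that of Hdac2, because the pseudogene Gm10093 is 99.4% identical to it over 1444 bases and AC125456.1 is 96.3% identical over 1450 bases. The reads of Gm10093 numbered 120 and 110 for Hdac3flox/flox, against 117 and 130 for Hdac3cKO. Adding them to Hdac1 left the genotypes apart, at 124.8 and 122.2 CPM (reads scaled to library size) against 134.1 and 135.5 CPM.

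HDAC8, the class I enzyme that deacetylates the cohesin subunit SMC3, is encoded by a gene with a low level in these libraries. Hdac8 (chromosome X, 102284639 to 102505359, minus strand) was at 3.002 and 2.44 RPKM in Hdac3flox/flox and at 2.44 and 2.11 RPKM in Hdac3cKO, from 266 and 217 reads against 218 and 180. The lower Hdac3flox/flox library and the higher Hdac3cKO library were nearly level, and the replicates of each genotype differed by about as much as the genotype means. The mean difference was −16.4% (log2 fold change −0.25, SE 0.144, 95% interval −0.63 to 0.14, limma adjusted p = 0.292). The Hdac8 log2 fold change was −0.10 or −0.39 when replicate 1 or replicate 2 of Hdac3flox/flox was left out, and −0.14 when replicate 2 of Hdac3cKO was.

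Summed over Hdac1, Hdac2, Hdac3 and Hdac8, the class I level was 99.8 and 97.4 RPKM in Hdac3flox/flox and 99.996 and 99.3 RPKM in Hdac3cKO. The sums overlapped, at 98.6 ± 1.74 and 99.6 ± 0.514 RPKM (SD, n = 2 each). The make-up of the sum differed. Hdac3 gave 24.5% and 25.1% of it in Hdac3flox/flox and 19.4% and 19.3% in Hdac3cKO, a difference of −5.42 percentage points. Over the same libraries the share of Hdac1 went from 34.4% and 34.6% to 37.1% and 37.5%, and that of Hdac2 from 38.2% and 37.7% to 41.1% and 41.1%. Hdac8 gave 3.01% and 2.51% against 2.44% and 2.13%. Shares of a fixed whole move together, so a smaller share of Hdac3 raises the joint share of the others by itself. Without Hdac3 the sum was 75.4 and 72.9 RPKM against 80.6 and 80.1 RPKM, which did not overlap (exact permutation test, two-sided, p = 0.333, the smallest that 2 against 2 libraries allow).

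**Figure D2:**
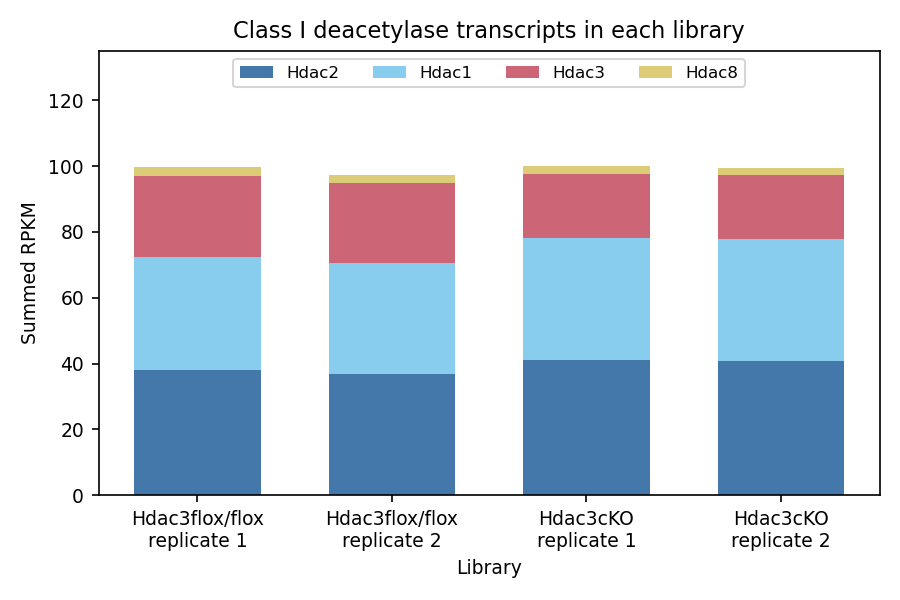
Summed RPKM of the class I genes in each of the 4 libraries, as stacked bars from 0 with Hdac2, Hdac1, Hdac3 and Hdac8 from the bottom up. The bars reach 99.8, 97.4, 99.996 and 99.3 RPKM, with a thinner Hdac3 block and thicker Hdac1 and Hdac2 blocks in the Hdac3cKO libraries.

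The class IIb enzymes are mostly cytoplasmic. HDAC6 deacetylates alpha-tubulin, HSP90 and cortactin, and HDAC10 deacetylates acetylated polyamines. Hdac6 (chromosome X, 7930120 to 7947889, minus strand) was at 17.2 and 16.8 RPKM in Hdac3flox/flox and at 17.4 and 17.5 RPKM in Hdac3cKO. The Hdac3cKO libraries were just above the others, 2.69% on average, with a log2 fold change of 0.038 (SE 0.036, 95% interval −0.057 to 0.13, limma adjusted p = 0.499). The Hdac6 log2 fold change was 0.024 without Hdac3flox/flox replicate 2, and 0.075 and 0.078 with the libraries scaled by median of ratios and TMM, with no call in any of them. Hdac10 (chromosome 15, 89123307 to 89128700, minus strand) was at 7.84 and 7.19 RPKM in Hdac3flox/flox and at 6.14 and 6.70 RPKM in Hdac3cKO, from 485 and 446 reads against 383 and 399. Both Hdac3cKO libraries were below both Hdac3flox/flox libraries, but the difference did not pass (log2 fold change −0.22, SE 0.075, 95% interval −0.42 to −0.023, limma adjusted p = 0.111). The ratio of Hdac6 to Hdac10 was 2.19 and 2.34 in Hdac3flox/flox and 2.83 and 2.61 in Hdac3cKO, with no overlap (exact permutation p = 0.333, the smallest possible).

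Hdac11 was the gene of the 10 that was called. It encodes the only class IV deacetylase, a small enzyme that removes long-chain fatty acyl groups from lysine efficiently. Hdac11 (chromosome 6, 91156665 to 91174692, plus strand) was at 2.23 and 2.15 RPKM in Hdac3flox/flox and at 1.10 and 1.19 RPKM in Hdac3cKO, from 157 and 152 reads against 78 and 81. The genotypes were far apart and the replicates close together. The means were 2.19 ± 0.053 and 1.15 ± 0.068 RPKM (SD, n = 2 each), a difference of −47.7%, with a log2 fold change of −0.88 (SE 0.12, 95% interval −1.20 to −0.56, limma adjusted p = 0.0176). The read ratio was 0.523 (exact 95% interval 0.429 to 0.635). Hdac11 was called under 9 of 10 other ways of processing and was lost without a filter on low values (limma adjusted p = 0.0523). With a pseudocount of 1, which weighs on genes of low level, the Hdac11 log2 fold change was −0.57 and still called (limma adjusted p = 0.0166). It was also lost when any 1 library was left out, where the log2 fold change was −0.93 to −0.82 and the limma adjusted p 0.0938 to 0.109. In such fits few genes were called at all, 0 to 98.

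Some reads of Hdac11 may come from the opposite strand. The annotated transcript Gm44002, not analysed here, covers 594 bases or 15.4% of the Hdac11 exons on the other strand, and Gm14573 covers 96 bases and was at 0.121 RPKM or less. No source used here says whether counting used strand.

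In RNA from ovaries, fewer cells of a type and less RNA per cell cannot be told apart, and markers of several cell types moved between the same libraries. Of the 8 endothelial markers 6 were called lower and 0 higher, and their summed level was 98.4 to 99.8 RPKM in Hdac3flox/flox and 71.4 to 72.8 RPKM in Hdac3cKO. Cldn5, a tight junction gene of endothelium, was at 16.1 and 16.04 RPKM against 9.08 and 9.23 RPKM. That was the largest fall of the 8, a log2 fold change of −0.80 against a list median of −0.41. Of the theca markers 3 of 6 were called lower and 1 higher (summed 1025 to 1119 RPKM, then 845.7 to 936.1), of the stromal markers 4 of 6 lower (444.0 to 445.7, then 411.6 to 418.2) and of the smooth muscle markers 2 of 5 lower (476.3 to 483.3, then 326.6 to 390.4). Of the granulosa markers 5 of 9 were called higher and 2 lower (7205 to 7626, then 8390 to 8809). These were Inha, Inhba, Hsd17b1, Cyp19a1 and Nr5a2 on the higher side and Foxl2 and Fshr on the lower side, listed after their values were seen. Inha alone made up most of the granulosa sum, at 5280 and 4946 RPKM in Hdac3flox/flox and 6094 and 5776 RPKM in Hdac3cKO. Of the oocyte markers 1 of 7 was called higher (177.7 to 180.9, then 194.0 to 218.1), of the leukocyte markers 0 of 5 (30.6 to 30.7, then 26.2 to 29.5) and of the surface epithelium markers 1 of 5 lower (15.9 to 19.5, then 15.5 to 24.8). No marker was at 0 in every library. The part of these shifts in the level of Hdac11 or of the other genes was not tested.

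The promoter of Hdac11, the gene that fell, is shown beside that of Hdac2, the highest of the class I genes, which was not called. Each window runs from 250 bases before the RefSeq start to 50 bases after it, on the plus strand of GRCm38.p6, chr6:91156565-91156864 for Hdac11 and chr10:36974294-36974593 for Hdac2. Capitals mark GC boxes (GGGCGG) and CCAAT boxes (CCAAT), read on both strands.
Hdac11: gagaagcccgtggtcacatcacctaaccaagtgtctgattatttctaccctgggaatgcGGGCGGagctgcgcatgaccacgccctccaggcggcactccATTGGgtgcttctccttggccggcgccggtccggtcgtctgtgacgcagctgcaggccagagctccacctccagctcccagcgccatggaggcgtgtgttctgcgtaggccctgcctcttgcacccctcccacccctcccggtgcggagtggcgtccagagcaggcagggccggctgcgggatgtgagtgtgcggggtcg
Hdac2: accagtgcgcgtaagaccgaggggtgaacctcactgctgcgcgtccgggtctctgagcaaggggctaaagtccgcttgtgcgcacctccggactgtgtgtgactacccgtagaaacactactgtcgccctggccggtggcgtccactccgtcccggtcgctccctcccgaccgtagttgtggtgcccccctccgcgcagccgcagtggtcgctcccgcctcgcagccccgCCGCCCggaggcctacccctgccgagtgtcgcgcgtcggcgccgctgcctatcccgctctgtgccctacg
Hdac11 held 1 GC box and 1 CCAAT box, 22 CpG and 66.7% G and C, and Hdac2 held 1 GC box, no CCAAT box, 36 CpG and 69.7% G and C. RefSeq promoters were found for 8 of the 10 genes, with 9 starts in all, and not for Hdac1 or Hdac10. Hdac6 had 5 GC boxes and 2 CCAAT boxes, Crebbp 2 GC boxes, Ep300 1 GC box, Hdac8 2 CCAAT boxes and Kat2b 1 CCAAT box at 1 of its starts, while Kat2a had neither. A GC box was held by 35.7% of all 32851 RefSeq promoters and a CCAAT box by 37.4%, and the cAMP response element (TGACGTCA), found in 1.80% of them, was in none of the 9. These matches are letters in a window and were not tied to the levels.

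The acetyltransferases p300 (Ep300) and CBP (Crebbp) are large paralogous coactivators that acetylate histones at enhancers and are brought to DNA by many transcription factors. Ep300 (chromosome 15, 81585351 to 81652077, plus strand) was at 7.29 and 7.40 RPKM in Hdac3flox/flox and at 7.31 and 7.22 RPKM in Hdac3cKO, from 1817 to 1937 reads a library. The genotypes overlapped, and the log2 fold change was −0.015 (SE 0.048, 95% interval −0.14 to 0.11, limma adjusted p = 0.857). Crebbp (chromosome 16, 4081328 to 4213997, minus strand) was at 7.31 and 7.48 RPKM against 7.37 and 7.65 RPKM. It overlapped as well, with a log2 fold change of 0.022 (SE 0.051, 95% interval −0.11 to 0.16, limma adjusted p = 0.799). The ratio of Ep300 to Crebbp was 0.998 and 0.988 in Hdac3flox/flox and 0.991 and 0.945 in Hdac3cKO. The signs of differences this small turned with the scaling of the libraries for Ep300 and when Hdac3cKO replicate 2 was left out for Crebbp.

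GCN5 (Kat2a) and PCAF (Kat2b) are the paralogous acetyltransferases of the SAGA and ATAC coactivator complexes. Kat2a (chromosome 11, 100704746 to 100712465, minus strand) was at 35.8 and 35.2 RPKM in Hdac3flox/flox and at 35.7 and 33.8 RPKM in Hdac3cKO. The genotypes overlapped, and the log2 fold change of −0.029 (SE 0.040, 95% interval −0.13 to 0.076, limma adjusted p = 0.645) also turned sign with the scaling and without Hdac3cKO replicate 2. Kat2b (chromosome 17, 53566861 to 53672720, plus strand) was at 12.2 and 11.9 RPKM against 10.2 and 10.9 RPKM, from 1084 and 1063 reads against 919 and 938. Both Hdac3cKO libraries were lower. The mean differed by −12.04% and did not pass the threshold (log2 fold change −0.18, SE 0.052, 95% interval −0.32 to −0.046, limma adjusted p = 0.0762), while limma voom on the reads called it (adjusted p = 0.0239). Kat2b-ps, a processed pseudogene 95.1% identical over 2479 bases, had 0, 0, 1 and 0 reads. The ratio of Kat2a to Kat2b was 2.94 and 2.96 in Hdac3flox/flox and 3.49 and 3.09 in Hdac3cKO, with no overlap (exact permutation p = 0.333, the smallest possible). The 4 acetyltransferase genes together summed to 62.5 and 62.0 RPKM against 60.7 and 59.6 RPKM.

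**Figure D3:**
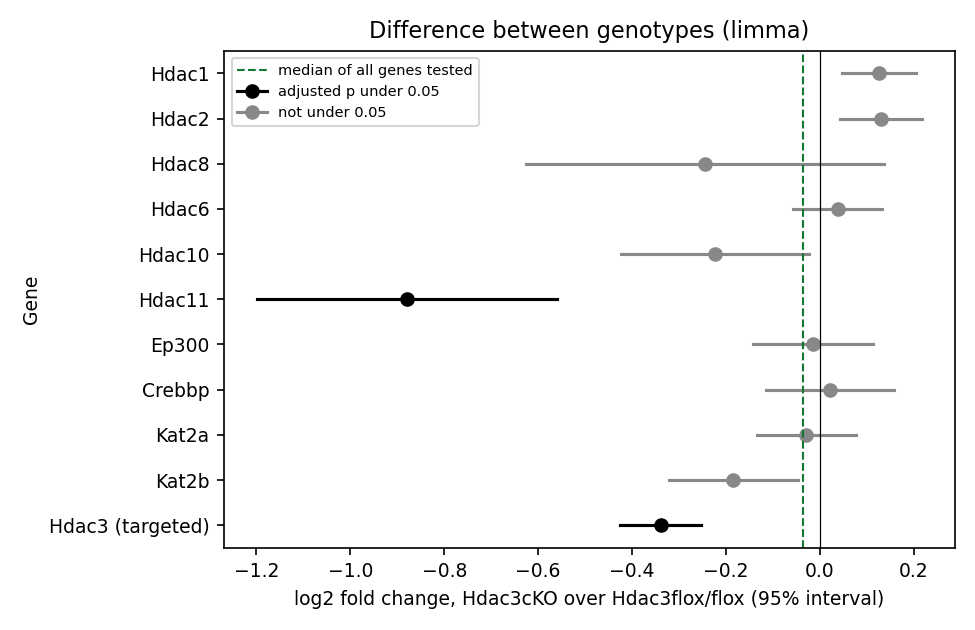
Log2 fold change of Hdac3cKO over Hdac3flox/flox with its 95% interval for the 10 genes and for the targeted gene Hdac3, in black where the limma adjusted p was under 0.05. Hdac11 at −0.88 and Hdac3 at −0.34 are the black points, and the dashed line is the median of all tested genes at −0.036.

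Genes that work with these enzymes were described on 14 lists with 208 tested genes in all. Of these, 30 were called higher, 16 lower and 162 were not called, which is 22.1% called against 18.7% of all genes, and their median log2 fold change was 0.026. For the complexes of HDAC1 and HDAC2, 1 of 16 Sin3 genes was called, 3 of 12 NuRD genes, 3 of 10 CoREST genes and 0 of 3 MiDAC genes, with median log2 fold changes of 0.012, 0.078, −0.040 and 0.077. Rbbp7, a histone chaperone shared by Sin3 and NuRD, was at 292.9 and 288.7 RPKM in Hdac3flox/flox and at 310.9 and 317.0 RPKM in Hdac3cKO (log2 fold change 0.11, SE 0.025, limma adjusted p = 0.0494), and was not called with a pseudocount of 0.01. Mbd3, the NuRD subunit that replaces MBD2 in one form of the complex, rose from 76.1 and 76.2 RPKM to 86.0 and 87.1 RPKM (log2 fold change 0.19, limma adjusted p = 0.0178). Mta3, another NuRD subunit, fell from 16.5 and 15.7 RPKM to 13.9 and 13.5 RPKM (log2 fold change −0.23, limma adjusted p = 0.0384). Of the CoREST list Zmym3 rose (log2 fold change 0.17, limma adjusted p = 0.0248) and Phf21a fell (−0.31, limma adjusted p = 0.0159). In MiDAC, Dnttip1 was at 9.50 and 8.25 RPKM against 8.10 and 10.8 RPKM, and Elmsan1 and Trerf1 did not pass the test either. Mta3 was no longer called when the libraries were scaled by median of ratios or TMM.

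The sirtuins, the NAD-dependent deacetylases, had a median log2 fold change of −0.15 over 7 genes, of which 2 were called lower and 0 higher. Sirt3, the main mitochondrial deacetylase, fell from 4.04 and 3.77 RPKM to 2.87 and 2.63 RPKM (log2 fold change −0.49, SE 0.088, limma adjusted p = 0.0298). Sirt7, a nucleolar sirtuin, fell from 8.08 and 7.85 RPKM to 6.56 and 6.69 RPKM (log2 fold change −0.26, SE 0.050, limma adjusted p = 0.0345). Sirt2 (−0.18, limma adjusted p = 0.0501) and Sirt6 (−0.15, 0.0685) stayed above the threshold. Sirt7 was no longer called once trends with GC content and with exon length had been taken out.

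Among 15 other acetyltransferases only Hat1 was called. HAT1 acetylates newly made histone H4 in the cytoplasm, and its gene rose from 24.4 and 22.2 RPKM to 28.6 and 30.9 RPKM (log2 fold change 0.35, SE 0.066, limma adjusted p = 0.0329). Taf1, Ncoa1 and Naa40 had limma adjusted p of 0.0537, 0.0592 and 0.0737. Of 25 tested SAGA and ATAC genes 2 were called, Dr1 higher (log2 fold change 0.24, limma adjusted p = 0.0193) and Mbip lower (−0.19, 0.0453), both of ATAC, and Mbip was called neither under another scaling nor with limma voom. Of 24 subunits of the MYST acetyltransferase complexes 3 were called, all higher: Ruvbl2, an ATPase of TIP60 (0.21, limma adjusted p = 0.0222), and the scaffold genes Brpf1 (0.26, 0.0356) and Brpf3 (0.19, 0.0409). The median log2 fold changes of these lists were 0.029, 0.065 and 0.017.

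Of 19 partners of p300 and CBP 3 were called higher and 2 lower, with a median log2 fold change of 0.0012. Atf4, a transcription factor of the amino acid stress response, rose from 112.0 and 111.8 RPKM to 138.0 and 135.5 RPKM (log2 fold change 0.29, SE 0.025, limma adjusted p = 0.00831), and Stat3 rose by 0.23 on the log2 scale (limma adjusted p = 0.0347). Cited1, a coregulator that binds the CH1 domain, fell from 6.85 and 7.92 RPKM to 3.74 and 4.56 RPKM (log2 fold change −0.82, SE 0.128, limma adjusted p = 0.0230). Its paralogue Cited4 went the other way, from 2.49 and 2.71 RPKM to 3.86 and 4.95 RPKM (0.73, SE 0.141, limma adjusted p = 0.0349), and was named after its values were seen. Tcf7l2, which binds beta-catenin, fell from 5.64 and 5.86 RPKM to 3.70 and 3.44 RPKM (−0.67, limma adjusted p = 0.0109).

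The list of acetyl-lysine readers held 25 genes, for proteins with a bromodomain, YEATS domain or related domain. Binding to acetylated lysine was not checked for each of them. Of the 25 genes, 4 were called higher and 2 lower (median log2 fold change 0.044). Atad2, a bromodomain ATPase linked to dividing cells, rose from 15.4 and 14.3 RPKM to 21.1 and 21.3 RPKM (log2 fold change 0.51, SE 0.049, limma adjusted p = 0.00935). Smarca2, which encodes the BRM ATPase of the SWI/SNF complex, fell from 13.7 and 14.6 RPKM to 10.2 and 10.1 RPKM (−0.47, SE 0.050, limma adjusted p = 0.0110). Baz1b (0.30) and Trim28 (0.15) also rose, with limma adjusted p of 0.0260 and 0.0295. The remaining called genes, Yeats4 higher and Trim24 lower, were named after their values were seen.

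Acetyl-CoA is the substrate of every acetyltransferase. On the list of its supply 1 of 13 tested genes was called higher and 3 lower (median log2 fold change −0.10). Acly, ATP citrate lyase, which makes acetyl-CoA outside mitochondria, rose from 87.0 and 81.9 RPKM to 103.1 and 101.0 RPKM (log2 fold change 0.27, SE 0.039, limma adjusted p = 0.0194). Pdk4 and Pdk2, kinases that inhibit pyruvate dehydrogenase and so do not make acetyl-CoA themselves, both fell. Pdk4 was at 8.59 and 11.04 RPKM against 3.84 and 3.41 RPKM (−1.40, SE 0.142, limma adjusted p = 0.00998) and Pdk2 at 14.4 and 14.4 RPKM against 11.2 and 10.3 RPKM (−0.42, SE 0.055, limma adjusted p = 0.0158). Acss1, a mitochondrial acetyl-CoA synthetase, fell by 0.59 on the log2 scale (limma adjusted p = 0.0493). Acss1 was not called under either scaling, without a filter, with the replicate number as a block or after removal of GC content and length trends.

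The last lists hold substrates of HDAC8, HDAC6 and HDAC10 and genes around them. Of 13 cohesin genes 3 were called, all higher, while Hdac8 itself was not called (median log2 fold change 0.11). Wapl, which releases cohesin from DNA, rose from 50.4 and 48.0 RPKM to 69.1 and 66.7 RPKM (log2 fold change 0.46, SE 0.039, limma adjusted p = 0.00800). Esco2 and Cdca5, which secure cohesion in S phase by acetylating SMC3 and by opposing WAPL, rose by 0.44 and 0.28 (limma adjusted p = 0.0167 and 0.0284). Of 16 tubulin and HDAC6 related genes 7 were called higher and 1 lower (median 0.15). Vcp, the segregase that unfolds ubiquitinated proteins and binds HDAC6, rose from 95.6 and 94.2 RPKM to 133.1 and 128.5 RPKM (0.46, SE 0.030, limma adjusted p = 0.00553), and Hsp90aa1 from 116.7 and 121.6 RPKM to 158.4 and 164.2 RPKM (0.44, limma adjusted p = 0.00736). Tubb4b and Tubb5 rose by 0.35 and 0.28 (limma adjusted p = 0.00794 and 0.00833). Tubulin genes are near-identical to each other and to pseudogenes, so their reads may have been split between copies. The other called genes of this list, Tuba1a, Tuba1b and Tuba1c higher and Tuba8 lower, were named after their values were seen.

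Of 12 tested polyamine genes 4 were called higher and 2 lower (median log2 fold change 0.036), beside a Hdac10 that was not called. Odc1, the rate-limiting enzyme of polyamine synthesis, rose from 89.5 and 89.0 RPKM to 133.2 and 141.9 RPKM (log2 fold change 0.62, SE 0.039, limma adjusted p = 0.00507). Srm, which makes spermidine, rose from 39.1 and 39.8 RPKM to 49.8 and 57.5 RPKM (0.44, SE 0.075, limma adjusted p = 0.0271), and Amd1, which supplies its aminopropyl donor, rose by 0.21 (limma adjusted p = 0.0230). Oaz2, an antizyme that sends ODC to degradation, fell by 0.23 on the log2 scale (limma adjusted p = 0.0302), and was no longer called after removal of GC content and length trends (Oaz2 log2 fold change −0.15, limma adjusted p = 0.0720). Azin1, an antizyme inhibitor, was higher and Sat1, which acetylates polyamines for export or breakdown, was lower, both named after their values were seen. The median over all genes tested was −0.036, and these lists were not compared with it by a test.

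**Figure D4:**
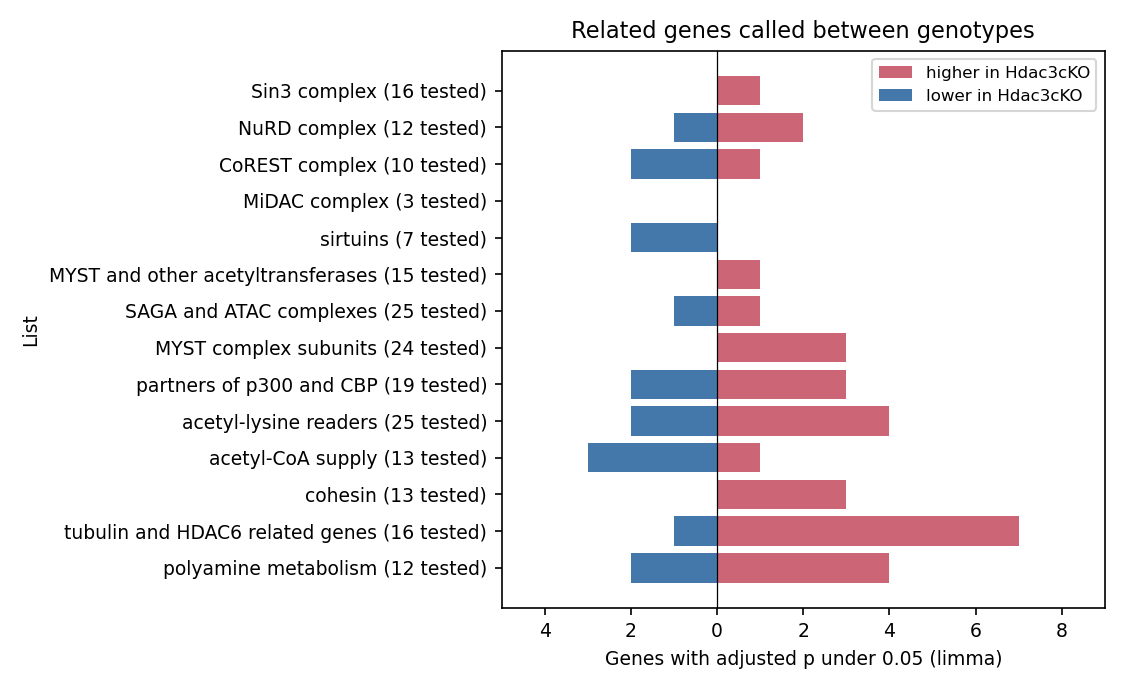
Number of genes with a limma adjusted p under 0.05 on each of the 14 lists, drawn to the right in red where higher in Hdac3cKO and to the left in blue where lower, with the number tested beside each list. The tubulin and HDAC6 list reaches 7 higher and 1 lower, the polyamine list 4 higher and 2 lower, and the sirtuins have 2 lower and 0 higher.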

How the data were processed

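Illumina TruSeq libraries, 2 of Hdac3flox/flox and 2 of Hdac3cKO, were sequenced by Annoroad. The authors deposited RPKM values by gene symbol. Bowtie 0.12.2 and mm8 appear in the submitters' processing notes, but the exon lengths implied by the values equalled those of GENCODE M21 on GRCm38 for 91.0% of 26767 matched rows, so positions are on GRCm38. The counting tool and annotation are not stated in the sources used here. Whole reads were recovered from these RPKM values (relative tolerance 1e-06), directly with the annotated length for 24360 rows and with a length found in the values for 4251, and library totals were 17621129 to 18452073. The deposited RPKM values are not corrected for composition.

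In R 4.3.3, limma 3.58.1 (trend, genotype only) was run on log2(RPKM + 0.1) for the 15528 genes that reached 0.5 RPKM in 2 libraries or more. The fit was also run on simulated reads with the same dispersion for every gene. That run checked the code and cannot show how far the calls in these libraries hold. Exact intervals (Clopper-Pearson, 95%) cover counting error only. Nothing shows that the libraries came from separate animals beyond the design text, so p-values measure the spread between these libraries. In limma the variance of each gene is also drawn towards that of genes of similar level, so SEs and p-values do not rest on its own replicates alone. Alternatives were pseudocounts of 1 and 0.01, other filters, median-of-ratios and TMM scaling, limma voom, a replicate block, removal of GC content and length trends, and each library left out. Copies were searched with BLAST 2.17.0 (at least 95% identity over 50% of the shorter transcript). Promoter sequences are from RefSeq (GRCm38.p6). Named genes were the 10 genes and Hdac3, up to 4 genes of smallest p per pathway list and up to 2 of highest mean RPKM per cell type list, with further called genes named after their values were seen. The 10 genes and the lists were chosen with earlier results of these data known. A gene that this rule names is not reported here.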

Additional observations from a re-analysis of the deposited data

How the results depend on the processing

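Main calls were 2904 genes, 1193 higher and 1711 lower, with 41.1% of them higher. That share was 52.5% with median-of-ratios scaling, 53.4% with TMM and 62.1% after removal of GC content and exon length trends. The called genes numbered 954 without a filter and 4651 with limma voom. Without each library in turn they numbered 0 to 98, with 4075 to 4357 genes at an unadjusted p under 0.05 in the fits that called 0.

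Of the 10 genes, 0 were called without a filter, 4 with voom and 3 with a floor of 1 RPKM or of 10 reads in every library, with either scaling or after removal of the GC content and length trends. The share of all genes called in the same fits was 3.33% without a filter, 30.0% with voom, 27.0% with 1 RPKM, 23.9% with 10 reads, 18.7% with median of ratios, 18.8% with TMM and 20.9% after removal of the trends, against 18.7% in the main analysis. The cause was not tested. Without each library in turn 0 were called, and the log2 fold changes were −0.93 to −0.82 for Hdac11 and −0.35 to −0.33 for Hdac3. Hdac11 at −0.88 was also lost without a filter. Hdac1 passed at 0.13 with each stricter filter and with voom, 0.16 with median of ratios, 0.17 with TMM and 0.20 after removal of the trends. Hdac2 passed at 0.13 with the stricter filters and voom, 0.17 with each scaling and 0.18 after removal of the trends. Kat2b passed with voom, at −0.19. Signs turned for the Ep300 log2 fold change (0.0213, 0.025 and 0.057) and the Kat2a log2 fold change (0.0074, 0.011 and 0.036) with median of ratios, TMM and trend removal. Without each library in turn the log2 fold change was −0.0040 to 0.048 for Crebbp and −0.069 to 0.011 for Kat2a, and among other genes −0.13 to 0.0085 for Cd68, −0.22 to 0.051 for Lyz2, −0.13 to 0.28 for Dnttip1 and −0.40 to 0.79 for Msln. In reads the share differences were 2.42 percentage points for Hdac1 and 3.55 for Hdac2.

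On the lists of genes, leaving out a library gave 0 calls on every list. Without a filter the Sin3, MYST and other acetyltransferase, MYST subunit and sirtuin lists had 0 calls, the CoREST, NuRD, SAGA and ATAC, acetyl-CoA, cohesin and polyamine lists 1 each, the lists of readers and of p300 and CBP partners 2 each and the tubulin list 5. With a pseudocount of 0.01 the Sin3 list had 0. With the stricter filters or either scaling the other acetyltransferase list had 3 and the cohesin list 6. With voom the numbers were 2 for Sin3, 4 for other acetyltransferases, 5 for MYST subunits, 6 for NuRD, 7 for cohesin, 8 for partners and 13 for readers. After removal of the trends they were 4 for other acetyltransferases, 5 each for MYST subunits, NuRD, SAGA and ATAC, 6 for cohesin, 10 for readers and 1 for sirtuins. Signs also turned for Cd68 (0.036) and Lyz2 (0.0064) after removal of the trends. Over all values compared, leaving aside the fits that left out a library, calls were lost for 30 without a filter and 11 with the block. They were lost for 9 after removal of the trends, 6 with each scaling, 2 with a pseudocount of 0.01 and 1 with voom. Calls were gained for 15 with voom, 9 with each stricter filter, 8 after removal of the trends and 7 with each scaling. The block and a pseudocount of 1 gained 1 each.

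The libraries with the same replicate number showed little shared deviation over all genes (correlation 0.076 over 15528 genes). Such a correlation cannot decide whether libraries with the same replicate number were paired. With the number as a block 2143 genes were called (891 higher and 1252 lower), and Hdac11 kept its call at −0.88 (limma adjusted p = 0.0387) while Hdac1 had 0.0852. With this replicate block the Sin3 and other acetyltransferase lists had 0 calls, the sirtuin, MYST subunit and SAGA and ATAC lists 1 and the readers 3. The lowest count behind any of the 10 genes was 78 reads, for Hdac11.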
